A study of Homo sapiens with 12 samples.

Results

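The response of K562 cells to 8 h of dasatinib was read from 6 of the 12 arrays of a dasatinib time course. The members are the 3 arrays labelled as dasatinib at 8 h and the 3 arrays labelled as DMSO at 24 h, and all genes measured on them were considered. K562 is a human line from chronic myeloid leukaemia (CML). The drug group received 100 nM dasatinib for 8 h and the vehicle group 0.2% DMSO for 24 h, each in medium with 0.1% fetal bovine serum. The other arrays are of cells given the same dose for 4 h or 24 h, with 3 arrays each, and they serve here to place the 8 h values in time. All cells analysed here are of this 1 line. No vehicle culture of 8 h was analysed here, so the drug and the shorter time in low-serum medium cannot be told apart in this comparison.

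K562 cells carry the BCR-ABL1 fusion, whose tyrosine kinase is active without a ligand. The fusion kinase drives the RAS and ERK cascade, the transcription factor STAT5 and the PI3K and AKT pathway, and through them genes of growth, survival and ribosome production. Dasatinib binds the ATP site of ABL and of SRC family kinases. The line also keeps an erythroid character, and agents that stop its growth can raise globin and haem synthesis genes.

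Transcript levels were read on Illumina BeadChips as background-corrected, quantile-normalized signals on the log2 scale, called the signal below. In the 6 arrays, 17799 to 18927 of 47314 probes were detected and the median raw signal was 134 to 156. Across genes, which are not independent replicates, Pearson's r was 0.991 to 0.992 within the groups and 0.966 to 0.971 between 8 h and DMSO arrays. All 11 K562 markers on the array were measured and were detected on all 6 arrays, among them the globins HBG1, HBE1 and HBZ. By contrast 1 of 10 lymphoid markers on the array (CD3D), 3 of 13 granulocyte and monocyte markers and 3 of 11 fibroblast and epithelial markers were measured. The summed log2 signal of the 3 granulocyte and monocyte markers was 19.2 to 19.9 in DMSO and 18.4 to 19.2 at 8 h, and none of them was called. That of the 3 fibroblast and epithelial markers was 26.9 to 27.2 and 27.1 to 27.5. COL1A2 fell by 0.39, a call lost without 8 h array 1, and DCN, detected on 1 DMSO array, rose by 0.38. The DCN call was lost without background correction and when any 1 of the DMSO arrays was left out. EPCAM, the brightest of the 3, had means of 11.71 in DMSO and 11.98 at 8 h and was not called. CD3D fell by 0.70 (adjusted p = 0.00081). The part of these markers in the results was not tested. In bulk samples fewer cells of a type and less RNA per cell cannot be told apart.

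At 8 h, most genes that report ERK and STAT5 signalling and most genes of ribosome assembly were below their vehicle level. Most erythroid genes and most measured FOXO targets and quiescence genes were above it, as were 27 of 53 mitosis and spindle genes. Of 10208 genes tested, 3265 (32.0%) differed from DMSO, at an adjusted p under 0.05 in limma with Benjamini-Hochberg adjustment over all genes. They divided into 1694 higher genes (16.6%) and 1571 lower genes (15.4%), and such genes are said below to have risen or fallen. Counts of list members below are to be read beside these shares. The signals of the 2 groups did not overlap for 4695 genes (46.0%), which include 3196 of those that passed. The median difference over all genes was 0.02 on the log2 scale, with quartiles of -0.25 and 0.27. Whether the 3 arrays of a group come from separate cultures is not stated in the labels, and the p-values rest on the spread among these arrays alone.

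Most changes were small. The median size among genes that passed was 0.59 for those higher and -0.63 for those lower, and 529 genes (5.18%) changed by at least 2-fold in the fitted difference, 247 higher and 282 lower. With genes undetected in 1 group set to their bounds 228 higher and 269 lower genes were past 2-fold, 17 and 32 past 4-fold and 4 and 3 past 8-fold. The number past 2-fold depends on how dim signals are treated, since it was 295 with an offset of 50, 131 without background correction and 63 in the authors' value table. With the genes ranked by signal and split into 4 groups of 2552, the dimmest were called least often (22.4%), against 35.2%, 40.5% and 29.8% in the brighter groups in rising order. Of the genes that passed, 90 higher and 70 lower ones were detected in only 1 of the 2 groups, and their changes are given as bounds ("at least").

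**Figure D1:**
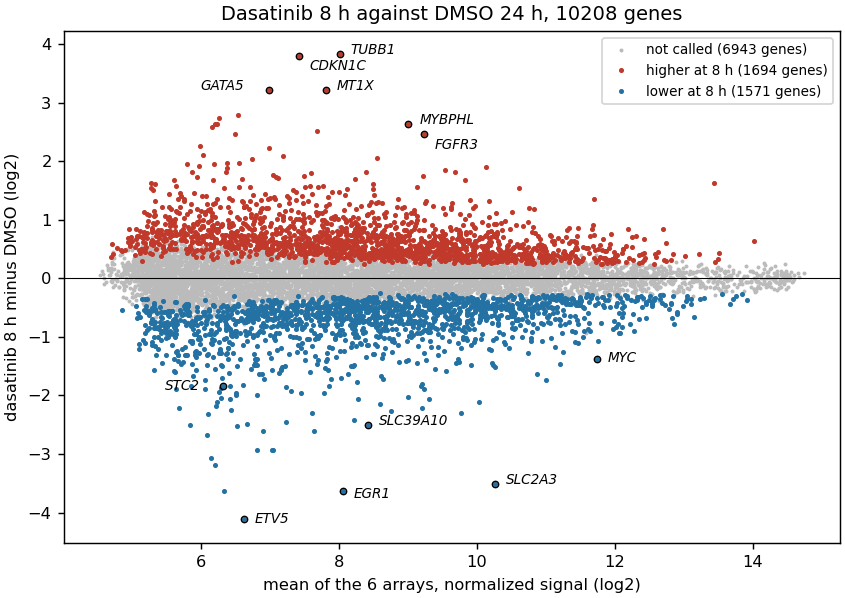
Difference in normalized signal between dasatinib 8 h and DMSO 24 h (log2) against the mean signal of the 6 arrays (log2) for 10208 genes, with called genes coloured by direction. The 1694 higher and 1571 lower genes are spread over the whole signal range, and TUBB1 and CDKN1C lie highest and ETV5 lowest.

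Among the largest rises were a platelet tubulin, a cyclin-dependent kinase inhibitor and a metallothionein. TUBB1, the beta tubulin of platelets, gave signals of 10.03, 9.92 and 9.85 at 8 h and 6.67, 6.10 and 5.56 in DMSO, a 14.2-fold rise (3.82, SE 0.21, adjusted p = 1.5e-07). CDKN1C, which encodes the inhibitor p57, gave 9.22, 9.36 and 9.38 at 8 h and 5.73, 5.32 and 5.52 in DMSO, a 13.9-fold rise (3.80, SE 0.22). In both genes each drug array lay above each vehicle array by over 3 log2 units. GATA5, a GATA-family transcription factor, read 8.73, 8.51 and 8.53 at 8 h against 5.18, 5.95 and 5.01 in DMSO, where 1 array detected it. MYBPHL, a relative of myosin-binding protein H, rose by 2.64 (SE 0.10) from 7.59, 7.79 and 7.69 to 10.25, 10.33 and 10.41.

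Several genes came up from below detection in DMSO. TF, which encodes the iron carrier transferrin, was undetected in DMSO at 4.88, 4.88 and 4.87 and read 7.38, 7.54 and 7.48 at 8 h, at least 4.69-fold higher (adjusted p = 6.4e-09). EFNA1, a membrane-bound ligand of Eph receptors, read 7.57, 7.73 and 7.60 at 8 h and was at least 5.26-fold higher. FZD2, a receptor of Wnt ligands, was undetected in DMSO as well and lay at least 4.99-fold above it. The largest rises were taken only from genes without overlap, so the groups did not overlap in any of these. GLRX, a glutaredoxin that removes glutathione from proteins, was at least 4.90-fold higher, CITED4, a binding partner of the CBP and p300 coactivators, at least 3.68-fold and AQP1, the water channel of the red cell membrane, at least 3.61-fold. FAXDC2, of the fatty acid hydroxylase family, rose by 2.52 at the probe used and by 0.57 at its other probe.

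The largest falls included genes that ERK signalling is known to induce, a glucose transporter and surface or secreted proteins. ETV5, an ETS transcription factor, read 4.54, 4.64 and 4.54 at 8 h, below detection, against 8.69, 8.52 and 8.86 in DMSO, at least 10.9-fold lower (adjusted p = 1.8e-09). Its other probe fell by 1.08. SLC2A3, the high-affinity glucose transporter GLUT3, went from 12.16, 11.85 and 12.06 in DMSO to 8.65, 8.39 and 8.49 at 8 h, 11.4-fold lower (-3.51, SE 0.11). CD69, a surface marker of leukocyte activation, read 8.09, 8.10 and 8.30 in DMSO and was undetected at 8 h, at least 7.56-fold lower, while its other probe fell by 1.55. The largest falls were likewise taken only from genes without overlap, so no 8 h array reached the lowest DMSO array in these. IL6, the cytokine interleukin 6, read 7.33, 7.26 and 7.71 in DMSO and was undetected at 8 h, at least 4.57-fold lower. INPP1, an inositol phosphatase, fell by 2.94 (SE 0.21), and the DMSO array at 9.10 stood above the other two at 8.21 and 8.24. FBLN1, which encodes the matrix protein fibulin, fell by 2.60, with the widest error among these (SE 0.35), since its 8 h arrays read 5.34, 4.84 and 6.64.

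**Figure D2:**
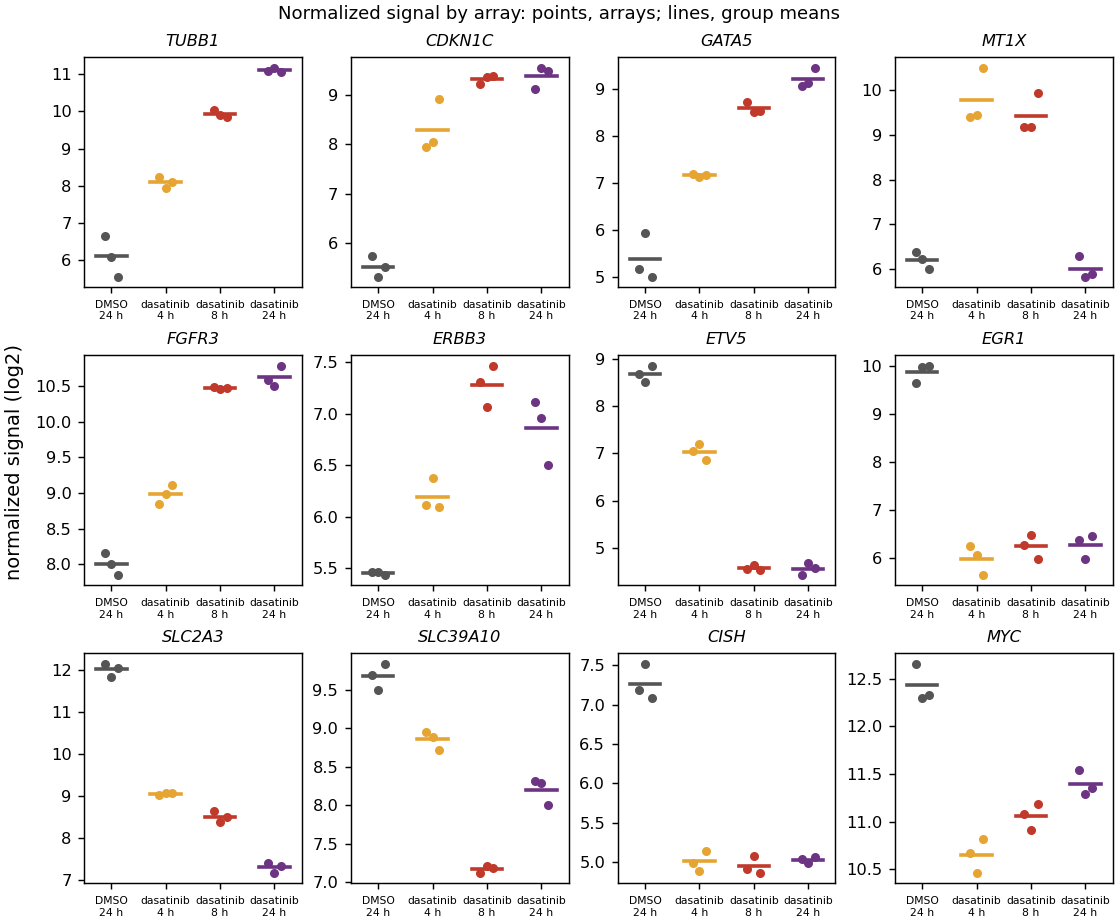
Normalized signal (log2) of 12 genes on each of the 12 arrays, with points for arrays and lines for group means in DMSO 24 h and dasatinib 4 h, 8 h and 24 h. In all 12 panels the 3 arrays at 8 h lie wholly above or wholly below the 3 DMSO arrays. For the largest rises and falls among them this was a condition of choice. In the panel of MT1X the 24 h arrays lie back at the DMSO level.

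The kinase that dasatinib blocks and its relatives were considered first. BCR, the 5′ partner of the fusion, read 6.38, 5.37 and 5.64 at 8 h and 5.63, 6.14 and 5.58 in DMSO (0.02, SE 0.22, adjusted p = 0.97). ABL1 read 10.67, 10.33 and 10.54 at 8 h and 10.33, 10.41 and 10.50 in DMSO (0.10, SE 0.11, adjusted p = 0.53). In both genes the groups overlapped. The probes do not show whether they read the fusion transcript, the normal alleles or both. Of 14 measured genes of ABL, the SRC family and other known dasatinib targets, 4 fell and 3 rose. These are 28.6% and 21.4%, against 15.4% and 16.6% of all genes. LYN, the SRC family kinase best known in CML cells, read 10.58, 10.53 and 10.55 at 8 h against 11.77, 11.65 and 11.77 in DMSO and fell by 1.18 (SE 0.09, adjusted p = 2.1e-06). SRC fell by 1.19 (SE 0.18), while FYN of the same family rose by 0.94 (SE 0.18). The collagen-binding receptor kinases went apart, since DDR1 rose by 1.01 and DDR2 was at least 1.27-fold lower.

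Receptor and adaptor genes that feed PI3K and ERK signalling changed in both directions. FGFR3, a fibroblast growth factor receptor, read 10.48, 10.46 and 10.47 at 8 h against 8.16, 8.01 and 7.85 in DMSO, a rise of 2.46 (SE 0.11), but its other probe gave -0.18 and did not pass. ERBB3, a receptor that recruits PI3K, read 7.31, 7.06 and 7.47 against 5.47, 5.46 and 5.44, a rise of 1.82 (SE 0.16, adjusted p = 5.1e-06). ERBB2, its partner in dimers, read 8.06, 7.83 and 7.97 against 6.60, 5.99 and 6.12, a rise of 1.72 (SE 0.17). For each of these receptors all 8 h arrays lay above all DMSO arrays. Of 40 measured genes of the PI3K, AKT and mTOR pathway with its receptors, 8 rose and 10 fell, with a median of 0.02 (0.02 for all genes). The adaptor GAB1 was at least 1.41-fold higher and its relative GAB2 fell by 0.83. IRS1, an insulin receptor substrate, was at least 1.34-fold lower, PIK3CB, a catalytic subunit of PI3K, fell by 0.76, and the stress-induced sestrin SESN1 rose by 0.78.

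Genes downstream of ERK fell together. Of 18 measured ERK output genes and ETS targets, 13 fell and 1 rose, with a median of -1.51 (-1.5 with undetected members at their bounds) against 0.02 for all genes. SPRY4 and SPRED1 are feedback inhibitors of the RAS and ERK cascade; SPRY4 was at least 3.63-fold lower and SPRED1 fell by 2.92 (SE 0.21). SPRED2 read 6.26, 6.57 and 5.92 at 8 h against 7.84, 7.80 and 7.83 in DMSO, a fall with no overlap (-1.57). FOSL1, an AP-1 subunit, fell by 2.04, IER3 fell by 1.81 and the ETS factor ETV4 fell by 1.20. MYEOV was at least 5.42-fold lower, and the cyclin CCND1 at least 2.93-fold. PHLDA1 fell by 2.94 at the probe used, but its other probe gave -0.39 and did not pass. DUSP6, the cytoplasmic ERK phosphatase, was dim, with 5.09, 5.18 and 5.24 at 8 h and 5.38, 6.06 and 5.30 in DMSO, and did not pass (-0.41, adjusted p = 0.14). The potassium channel gene KCNN4 was the member that rose, by 0.87.

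Immediate early genes, which serum and growth factors switch on within minutes, were led by EGR1. EGR1, a zinc finger transcription factor, read 6.29, 6.48 and 5.98 at 8 h and 9.65, 9.98 and 10.02 in DMSO, 12.4-fold lower (-3.63, SE 0.19, adjusted p = 1.0e-07). The rest of the group moved far less. Of 13 measured members 7 fell and 1 rose, with a median of -0.51 (-0.28 with the 1 bounded member at its bound). The AP-1 subunits JUNB and JUN fell by 0.77 and by 0.53, and SRF, the serum response factor, fell by 0.51. DUSP1, a nuclear phosphatase of MAP kinases, rose by 0.51.

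STAT5 targets fell almost without exception. Of 13 measured, 12 fell and 0 rose, with a median of -1.47. Several of them, such as CISH, SPRED1 and ID1, stand in other lists too. CISH, a suppressor of cytokine signalling that STAT5 induces, read 4.91, 5.08 and 4.86 at 8 h, undetected on each array, against 7.19, 7.52 and 7.08 in DMSO, at least 4.07-fold lower (adjusted p = 1.1e-07). PIM1, a serine/threonine kinase that promotes survival, read 8.71, 8.73 and 8.41 against 10.83, 11.17 and 10.76 and fell by 2.30 (SE 0.14). SOCS2, of the CISH family, read 10.11, 10.02 and 10.06 against 11.73, 11.50 and 11.86 and fell by 1.63 (SE 0.12). The groups did not overlap in any of them. BCL2L1, the gene of the survival protein BCL-XL, read 9.55, 9.62 and 9.34 against 10.95, 10.98 and 10.91 and fell by 1.44. SOCS1 fell by 1.47 and CCND2, a D-type cyclin, fell by 1.99. Of 29 cytokine receptor and JAK-STAT genes 9 fell and 4 rose (31.0% and 13.8%, against 15.4% and 16.6% of all genes). CISH, SOCS1 and SOCS2 are counted again among those that fell. The interleukin 4 receptor IL4R was at least 1.69-fold lower and STAT3 fell by 0.86. EPOR, the erythropoietin receptor, rose by 1.61 from 7.83, 7.64 and 7.60 to 9.41, 9.37 and 9.14.

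The promoters of CISH and EGR1 are shown because their elements for STAT5 and for the serum response factor lie close to the gene start. Each sequence is the 250 bases before the transcription start in RefSeq on GRCh38.p14, on the gene's strand, with matches in capitals. The capitals mark TTCNNNGAA in CISH (chr3:50611775-50612024, minus strand) and the CArG box in EGR1 (chr5:138465229-138465478, plus strand).
CISH: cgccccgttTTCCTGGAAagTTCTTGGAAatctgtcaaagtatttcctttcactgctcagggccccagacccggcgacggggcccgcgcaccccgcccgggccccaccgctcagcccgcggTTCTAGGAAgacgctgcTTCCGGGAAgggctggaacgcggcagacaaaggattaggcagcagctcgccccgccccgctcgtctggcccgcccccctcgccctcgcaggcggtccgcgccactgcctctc
EGR1: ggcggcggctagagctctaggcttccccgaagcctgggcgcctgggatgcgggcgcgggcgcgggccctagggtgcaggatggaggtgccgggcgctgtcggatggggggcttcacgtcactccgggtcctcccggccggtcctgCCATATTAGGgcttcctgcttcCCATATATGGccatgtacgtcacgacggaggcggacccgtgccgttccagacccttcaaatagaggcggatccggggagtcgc

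CISH holds 4 matches of the STAT5 element, whose first bases lie 241, 230, 129 and 112 bases before the start. In windows from 250 bases before to 50 after the start, searched on both strands, 7.88% of all 27305 RefSeq promoters held this element, 6.05% of the 8253 tested genes with a promoter, 5.33% of genes that fell and 5.71% of those that rose. Of the 8 STAT5 targets with a promoter 1 held it. EGR1 holds 2 CArG matches, 105 and 83 bases before the start. The CArG box, 6 bases of A or T between a pair of C and a pair of G, lay in 1.29% of all promoters, in 0.969% of those of tested genes and in 18.2% of 11 immediate early genes. A match describes letters and is not evidence of binding.

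Of 9 measured genes of the MYC, MAX and MXD network 4 rose and 3 fell. MYC, the transcription factor that drives growth genes, read 11.08, 10.92 and 11.19 at 8 h against 12.66, 12.30 and 12.34 in DMSO and fell by 1.37 (SE 0.13), and its other probe fell by 1.40. MAX, its obligate partner, read 6.72, 6.83 and 5.90 against 7.33, 7.17 and 7.43 and fell by 0.83. That call was lost without DMSO array 1 or 3 or without 8 h array 3, and the other probes of MAX gave -0.70, -0.33 and 0.20. The MXD genes encode MAX partners that repress the same E-box sites. MXD3 read 7.63, 7.86 and 7.72 at 8 h against 5.22, 5.26 and 5.33 in DMSO, where 2 arrays detected it, and rose by 2.47 (SE 0.12). MXD4 read 10.15, 10.03 and 10.09 against 8.50, 8.00 and 8.53 and rose by 1.74 (SE 0.14). In both the groups were far apart. MXD1 rose by 0.67, and MLXIPL, a glucose-responsive member of the wider network, rose by 1.96, whereas its partner MLX fell by 0.81 (-0.19 and not past the test at its other probe).

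Ribosome biogenesis was the list with the most members that fell. Of 79 measured ribosome biogenesis factors, 60 fell and 1 rose (75.9% and 1.27%), with a median of -0.54. NOP16, a nucleolar protein of large subunit assembly, read 9.43, 9.56 and 9.52 at 8 h and 11.03, 11.07 and 10.96 in DMSO and fell by 1.52 (SE 0.09, adjusted p = 4.3e-07). POP1, a subunit of the RNA-processing enzymes RNase P and RNase MRP, fell by 1.60. Of the nucleolar proteins RRP1B fell by 1.5 and MYBBP1A fell by 1.71. No 8 h array of NOP16 came within 1 log2 unit of a DMSO array. RRP8, a nucleolar methyltransferase, was the member that rose (0.39), a call lost without DMSO array 3 or 8 h array 3. The 8 h level was intermediate in time for this group. Against 4 h, 43 of the 79 were lower at 8 h and 0 higher (5.30% and 5.98% of all genes), and against 24 h, 54 were higher and 1 lower (18.3% and 17.5%). These comparisons share the 8 h arrays.

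The polymerases that make ribosomal and transfer RNA followed in part. Of 35 subunits and factors of RNA polymerases I and III, 13 fell and 3 rose, with a median of -0.24. POLR1G, a subunit of polymerase I, read 5.02, 5.44 and 5.08 at 8 h, where 1 array detected it, against 7.17, 7.40 and 7.32 in DMSO (-2.11, SE 0.16). POLR3G, a subunit of polymerase III, read 7.91, 8.23 and 7.85 against 9.92, 9.96 and 10.16 (-2.02, SE 0.12), but its other probe gave -0.41 and did not pass. At the probes used both lay wholly below the vehicle. POLR3D fell by 1.31 and TAF1A, of the polymerase I promoter selectivity factor, fell by 1.06. UBTF, which opens ribosomal DNA for polymerase I, rose by 0.60, a call lost without DMSO array 3, and none of the 3 that rose passed then.

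Genes of the ribosomal proteins themselves rarely passed the test. Of 69 cytosolic ribosomal protein genes 0 fell and 3 rose, with a median of 0.03; these were RPS7 (0.33), RPS9 (0.29) and RPS21 (0.29), and other settings gave 0 to 6 such genes. Of 77 mitochondrial ribosomal protein genes 8 rose and 9 fell, with a median of 0.02; 2 rose without 8 h array 2 and 5 fell without 8 h array 1. Of 29 genes of mitochondrial import and chaperones, 10 fell and 0 rose, led by GRPEL1, a cofactor of the matrix HSP70, which fell by 1.48, and by TIMM10, a chaperone of the intermembrane space, which fell by 1.02. Of 51 translation factors 8 fell and 2 rose (5 without DMSO array 1 and 0 without DMSO array 3). The share that fell, 15.7%, was near that of all genes, 15.4%, and 3.92% rose against 16.6%. The start codon selection factor EIF1 fell by 0.68. Of 71 oxidative phosphorylation subunits 11 rose and 2 fell, all by less than 1 log2 unit. The share that rose, 15.5%, was near that of all genes, 16.6%, and 2.82% fell against 15.4%. Other settings gave 3 (without 8 h array 2) to 23 (the authors' value table) that rose.

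The promoters of UTP4, a small subunit processome protein, and NAT10, an acetyltransferase of ribosomal RNA, are shown for the E-box CACGTG, which MYC and MAX bind and which is in capitals. They are the 250 bases before the start in RefSeq on GRCh38.p14, plus strand, at chr16:69132399-69132648 for UTP4 and chr11:34105379-34105628 for NAT10.
UTP4: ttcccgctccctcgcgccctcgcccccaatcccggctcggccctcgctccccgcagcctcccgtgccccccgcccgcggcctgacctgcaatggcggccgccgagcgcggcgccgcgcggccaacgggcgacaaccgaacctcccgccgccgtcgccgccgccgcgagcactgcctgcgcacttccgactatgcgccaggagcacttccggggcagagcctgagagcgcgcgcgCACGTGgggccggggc
NAT10: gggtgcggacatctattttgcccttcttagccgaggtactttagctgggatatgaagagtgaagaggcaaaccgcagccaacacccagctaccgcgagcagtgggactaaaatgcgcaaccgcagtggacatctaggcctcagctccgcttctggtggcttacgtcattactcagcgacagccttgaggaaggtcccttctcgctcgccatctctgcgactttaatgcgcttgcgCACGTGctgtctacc

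UTP4 fell by 0.86 (SE 0.13), from 11.94, 11.99 and 12.20 in DMSO to 11.08, 11.12 and 11.34 at 8 h. NAT10 fell by 0.78 (SE 0.12), from 11.28, 11.16 and 11.18 to 10.52, 10.23 and 10.51. These were taken from the members with the largest falls among those with this E-box before the start. Members with larger falls, such as NOP16, were passed over. The E-box begins 16 bases before the start in UTP4 and 15 in NAT10. In the windows that reach 50 bases past the start, 7.43% of all promoters held CACGTG, 10.8% of those of tested genes, 15% of those of genes that fell and 8.70% of those of genes that rose. Among genes that fell by 2-fold it was 18.2% of 209, and among ribosome biogenesis factors 34.3% of 67. The ETS element CCGGAAGT lay in 20.9% of these 67 promoters and in 9.58% of those of tested genes. These shares were not tested.

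Of 26 measured metallothioneins and zinc transporters 5 rose and 6 fell (19.2% and 23.1%, against 16.6% and 15.4% of all genes). Of 7 metallothioneins 3 rose and 0 fell, of 8 zinc exporters of the SLC30 family 2 rose and 1 fell, and of 10 importers of the SLC39 family 0 rose and 5 fell. MT1X, a metallothionein that binds zinc, read 9.18, 9.18 and 9.93 at 8 h and 6.39, 6.23 and 6.0 in DMSO, a 9.35-fold rise (3.22, SE 0.28, adjusted p = 6.7e-06). SLC30A1, the exporter that carries zinc out of the cell, read 9.28, 9.16 and 9.39 against 7.80, 7.99 and 8.16, a rise of 1.29 (SE 0.14), and its other probe rose by 0.98. For both, the 8 h arrays lay above all DMSO arrays. MT1F rose by 0.97 and MT1E by 0.65, the latter not without DMSO array 2 or 3 or 8 h array 3, and MT2A did not pass at 0.27 (SE 0.16, adjusted p = 0.24). The metallothionein genes are near-identical, and their probes may share signal. Of the importers, SLC39A10 read 7.12, 7.21 and 7.18 at 8 h against 9.69, 9.50 and 9.84 in DMSO and fell by 2.51 (SE 0.12). SLC39A14 read 7.13, 6.80 and 7.17 against 8.85, 8.69 and 8.69 and fell by 1.71 (SE 0.11), and SLC39A6 fell by 0.77.

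MT1X did not stay high. Its mean signal was 9.79 at 4 h and 6.0 at 24 h, and the 8 h level was 3.43 above that at 24 h (adjusted p = 4.4e-06) and did not differ from that at 4 h by the test (-0.36, adjusted p = 0.46). The MT1X promoter is shown for its metal response elements, the sites of the zinc sensor MTF1. It is the 250 bases before the start in RefSeq on GRCh38.p14 at chr16:56682220-56682469, plus strand, with TGCACNC or TGCGCNC on either strand in capitals.
MT1X: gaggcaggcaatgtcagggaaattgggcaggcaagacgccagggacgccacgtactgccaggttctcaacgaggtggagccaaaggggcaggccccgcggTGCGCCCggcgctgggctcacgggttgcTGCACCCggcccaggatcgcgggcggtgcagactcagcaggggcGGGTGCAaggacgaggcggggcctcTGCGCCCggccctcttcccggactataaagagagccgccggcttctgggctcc

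There are 4 matches, with first bases 150, 122, 78 and 53 bases before the start. The element is common, since 29.3% of all promoters held at least 1, as did 39.3% of those of tested genes and 47.6% of 21 zinc genes.

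Most erythroid genes rose. Of 48 measured, 33 rose and 1 fell (68.8% and 2.08%), with a median of 0.64. ALAS2, the first enzyme of haem synthesis in red cells, read 10.81, 10.57 and 9.99 at 8 h and 8.94, 8.86 and 8.05 in DMSO, a rise of 1.84 (SE 0.28, adjusted p = 0.00044), but its other probes gave 0.26 and 0.005 and did not pass. CA1, a carbonic anhydrase of red cells, read 8.36, 8.14 and 7.31 against 6.24, 6.47 and 5.77, a rise of 1.77 (SE 0.29). In both genes array 3 was the lowest of its group, in the drug and in the vehicle, and the groups did not overlap. HBZ, the embryonic zeta globin, read 14.36, 14.35 and 14.07 against 12.77, 13.01 and 12.11, a rise of 1.63 (SE 0.21). ALAD, an early enzyme of haem synthesis, rose by 1.75, with 0.06 at its other probe, and SLC25A37, the mitochondrial iron importer mitoferrin, by 1.32. TFRC, the transferrin receptor, fell by 0.27, a call that was lost in 8 of 15 other settings. The gamma globin HBG1 did not pass (-0.06, adjusted p = 0.67), at signals of 14.27 to 14.46 that lie near the upper end of the scale, where the highest gene mean was 14.75. Of the 48, 24 were higher at 8 h than at 4 h (5.98% of all genes) and 37 lower at 8 h than at 24 h (17.5% of all genes).

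Transcription factors of blood lineages moved both ways. GATA1, the master factor of red cells, read 9.28, 9.34 and 9.46 at 8 h and 9.22, 9.41 and 9.27 in DMSO and did not pass (0.06, SE 0.12, adjusted p = 0.75). GATA2, a factor of progenitors, read 6.51, 7.04 and 6.92 against 8.82, 8.77 and 8.72 and fell by 1.95 (SE 0.19, adjusted p = 1.4e-05). KLF1, an erythroid activator of globin genes, read 9.61, 9.52 and 9.53 against 8.69, 8.78 and 8.52, a rise of 0.89 (SE 0.10). The groups overlapped in GATA1 and lay apart in the others. TAL1 and LMO2, which act in complexes with GATA1, rose by 0.87 each, HHEX, a homeobox factor of progenitors, fell by 2.27 (SE 0.17), ETS2 fell by 1.38 and MYB, a factor of immature cells, fell by 0.77. Of 35 such factors 9 rose and 10 fell (25.7% and 28.6%, against 16.6% and 15.4% of all genes). The GATA motif, the letters GATA with A or T before and A or G after, searched on both strands, lay in 48.3% of 29 erythroid promoters and in 14.9% of those of tested genes, but in 25.5% of all promoters.

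Of 13 measured megakaryocyte and platelet genes 6 rose and 1 fell. Beside TUBB1, the receptor PEAR1 rose by 1.05 and ZFPM1, the GATA cofactor FOG1, by 1.03, while P2RX1, an ATP-gated channel of platelets, fell by 1.31. TUBB1 was not the only tubulin to rise. Of 15 tubulins 5 rose and 0 fell, and the neuronal TUBB3 read 9.33, 9.27 and 9.48 at 8 h against 8.09, 8.39 and 8.38 in DMSO, a rise of 1.07 (SE 0.12). The others were TUBB2A (0.94), TUBB2B (0.86) and TUBB4B (0.43), and the call of TUBB2B was lost when any 1 of the DMSO arrays or 8 h array 3 was left out; 3 tubulins rose without DMSO array 3 or 8 h array 3. Near-identical tubulins may share probe signal. Of 18 genes of BMP and SMAD signalling 8 fell and 1 rose; ID1, an inhibitor of helix-loop-helix factors, read 6.37, 6.44 and 6.22 against 8.81, 8.97 and 9.06 and fell by 2.61, the activin receptor ACVR1B fell by 1.24 and the secreted factor GDF15 fell by 1.18. SMAD6, an inhibitor of BMP signalling, rose by 0.65.

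Many FOXO targets and quiescence genes and many mitosis genes were higher at the same time. Of 32 measured FOXO targets and quiescence genes 19 rose and 4 fell (2 without 8 h array 1), with a median of 0.43. CCNG2, an atypical cyclin linked to arrest, was at least 2.33-fold higher, CDKN1B, which encodes p27, rose by 0.68 and KLHL24 by 1.57. CITED2 rose by 1.54 and YPEL5 by 1.47, while KLF2, TRIB2, KLF6 and GADD45A fell by less than 1 log2 unit. Of 53 mitosis and spindle genes 27 rose and 0 fell (50.9% and 0.00%), with a median of 0.33. CDC25C, the phosphatase that starts mitosis, read 9.77, 9.89 and 9.78 at 8 h and 9.06, 8.84 and 9.02 in DMSO, a rise of 0.84 (SE 0.09, adjusted p = 3.1e-05). NUSAP1, a spindle microtubule protein, read 11.51, 11.37 and 11.47 against 10.79, 10.70 and 10.67, a rise of 0.73. In both the groups did not overlap. NDC80 and NUF2, of the outer kinetochore, rose by 0.71 and 0.65. Of 56 DNA replication genes 9 rose and 7 fell (16.1% and 12.5%, near the shares of all genes, 16.6% and 15.4%), and 4 fell without DMSO array 1 or 8 h array 3, with E2F2 up by 0.86 and the replication complex gene GINS3 at -0.77. Of 28 cyclins, CDKs and inhibitors 7 rose and 7 fell, and 4 fell when an array of either group other than DMSO array 2 was left out.

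Of 14 measured survival and death genes of the BCL2 family, 5 fell and 2 rose (35.7% and 14.3%); without DMSO array 2 or 8 h array 2, 3 fell. PMAIP1, which encodes the pro-apoptotic NOXA, fell by 1.5 (SE 0.23), as did the pro-apoptotic BID, by 0.68. Of the protective members, BCL2L1, also named among the STAT5 targets, fell by 1.44, and BCL2 and MCL1 fell by 0.62 and by 0.35. The call of BCL2 was lost without DMSO array 2 or 8 h array 2. It was also lost without background correction and in the authors' value table. BAD and BCL2L11, pro-apoptotic BH3 genes, rose by 0.52 and 0.40, and each call was lost without DMSO array 1 or 3 and without at least 1 of the 8 h arrays. Other probes of BCL2L11 gave 0.13 and -0.22.

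**Figure D3:**
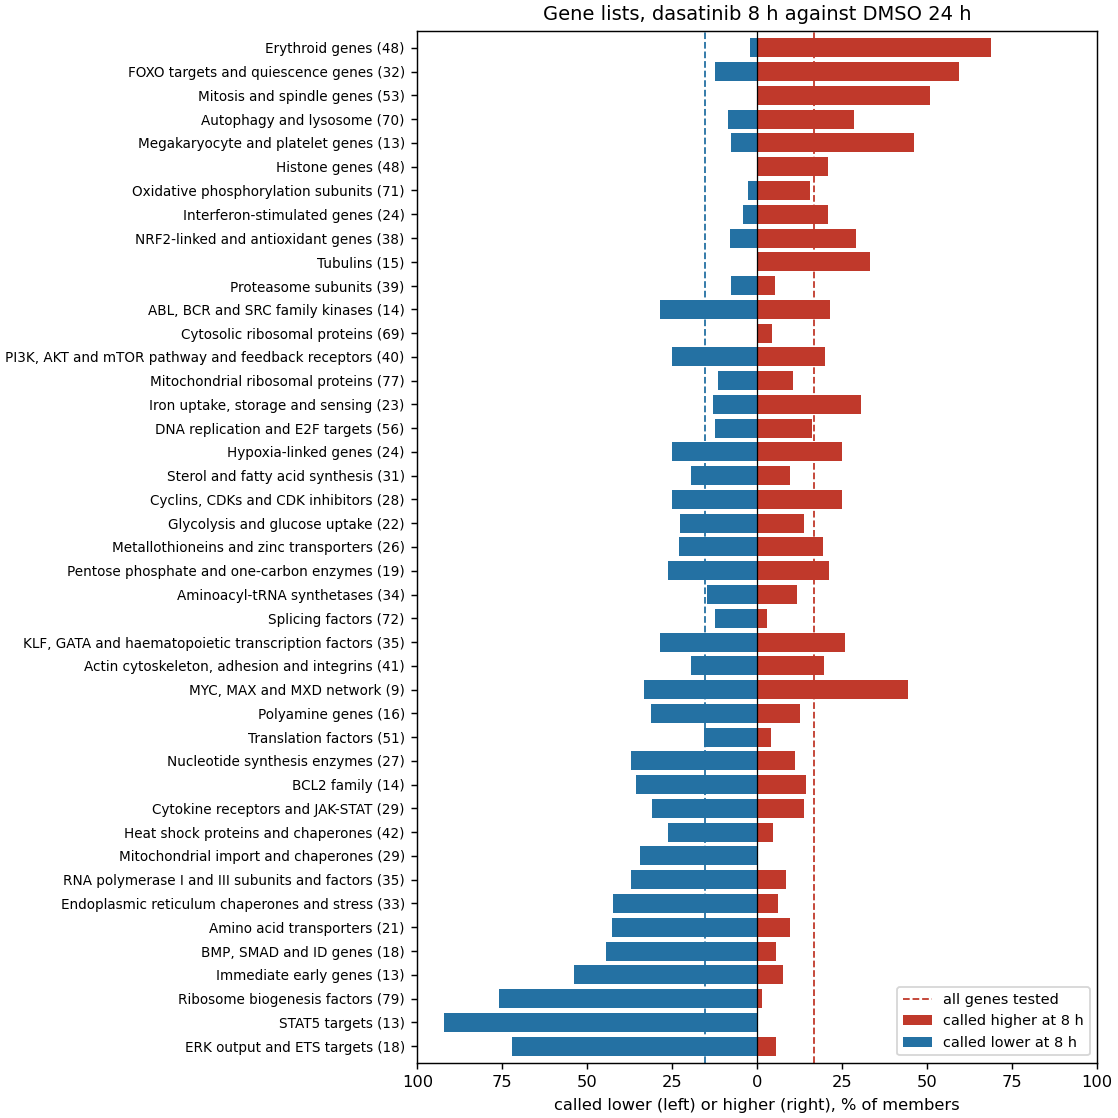
Percent of the measured members called lower (blue, left) or higher (red, right) at 8 h against DMSO, for each gene list with at least 9 measured members other than cell marker and reference gene lists, with the number measured in brackets and dashed lines at the percentages of all genes, 15.4% lower and 16.6% higher. Of the lists shown, STAT5 targets, ribosome biogenesis factors and ERK output genes extend farthest to the left, and erythroid, FOXO and mitosis genes farthest to the right.

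Metabolic genes changed member by member. The glucose uptake and glycolysis list had 22 measured genes, of which 5 fell and 3 rose (22.7% and 13.6%, against 15.4% and 16.6% of all genes). Beside SLC2A3, PFKFB3, which makes an activator of glycolysis, fell by 1.40 (-0.05 at its other probe), HK2, a hexokinase, fell by 1.29 and PFKP, a phosphofructokinase, fell by 1.08. SLC2A1, the widespread glucose transporter GLUT1, read 12.34, 12.05 and 12.14 at 8 h and 11.52, 11.39 and 11.59 in DMSO and rose by 0.68, and the enolase ENO2 was at least 1.54-fold higher. Of 27 nucleotide synthesis enzymes 10 fell and 3 rose (1 without DMSO array 3); PPAT, the first enzyme of purine synthesis, fell by 1.19, IMPDH1, of guanine nucleotide synthesis, fell by 0.92 and the CTP synthase CTPS1 fell by 0.80, while CTPS2 rose by 0.60. Of 38 NRF2-linked and antioxidant genes 11 rose and 3 fell, with GCLC, of glutathione synthesis, up by 0.96. Of 70 autophagy and lysosome genes 20 rose and 6 fell (3 without DMSO array 3), led by the autophagy kinase ULK1, which read 9.51, 9.60 and 9.49 against 8.06, 7.97 and 8.52 (1.35, SE 0.15).

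Several amino acid carriers fell while the first enzymes of serine synthesis rose. Of 21 measured genes listed as amino acid transporters, SLC43A3 among them, 9 fell and 2 rose, with a median of -0.29. SLC1A5, the glutamine carrier, read 8.86, 9.27 and 8.98 at 8 h and 10.47, 10.51 and 10.41 in DMSO and fell by 1.43 (SE 0.11, adjusted p = 3.1e-06). SLC38A1, another glutamine carrier, fell by 1.12 and the leucine carrier SLC7A5 fell by 1.06. The glycine carrier SLC6A9 was detected on 1 DMSO array and on all 8 h arrays and rose by 1.74. PHGDH, the first enzyme of serine synthesis, read 10.78, 10.91 and 11.00 against 9.86, 10.03 and 9.88, a rise of 0.97 (SE 0.11), and PSAT1, the next enzyme, rose by 1.04 (SE 0.09). MTHFD2, a mitochondrial enzyme of the folate cycle, fell by 0.70 and MAT2A, which makes S-adenosylmethionine, fell by 0.93.

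Chaperone genes that passed the test were mostly lower. Of 33 genes of the endoplasmic reticulum and its stress response 14 fell and 2 rose, with a median of -0.28. HSPA5, the main chaperone there, read 5.69, 5.44 and 6.03 at 8 h and 6.90, 7.03 and 6.48 in DMSO and fell by 1.08 (SE 0.20). XBP1, a transcription factor of that response, read 10.31, 10.22 and 10.21 against 11.34, 11.23 and 11.40 and fell by 1.08 (SE 0.12). The groups lay apart in both, by less for HSPA5. Of 42 heat shock proteins and chaperones 11 fell (7 without DMSO array 1) and 2 rose (1 without any of 4 single arrays); the HSP90 cochaperone FKBP4 fell by 0.86, HSPA1B fell by 0.75 and DNAJB2 rose by 1.27.

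Against 4 h of dasatinib 1151 genes (11.3%) differed at 8 h, 610 higher (5.98%) and 541 lower (5.30%), and against 24 h 3647 (35.7%), 1863 higher (18.3%) and 1784 lower (17.5%). The 4 h count fell to 727, 703 and 765 without 8 h array 1, 8 h array 2 and 4 h array 3. Some genes stood at 8 h outside all other groups. In 61 genes (0.598%) the 8 h level was higher than in DMSO, at 4 h and at 24 h by each test, and in 53 (0.519%) it was lower. All 3 tests use the same 8 h arrays, so a shift of those arrays would enter each of them. Without 8 h array 3 the counts were 38 and 29, and without 8 h array 2 the lower count was 35.

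Among genes lowest at 8 h were STC2, CEBPG and amino acid carriers, which are named for their values and come from different lists. STC2, a secreted glycoprotein, read 5.40, 5.34 and 5.48 at 8 h and 7.41, 6.98 and 7.34 in DMSO, with means of 6.89 at 4 h and 6.69 at 24 h. Its differences were -1.84 from DMSO, -1.49 from 4 h and -1.28 from 24 h, with a largest adjusted p of 7.3e-05 over these. CEBPG, a dimer partner of ATF4, read 8.23, 7.97 and 7.98 at 8 h and 8.72, 8.68 and 9.07 in DMSO, with 9.47 at 4 h and 9.17 at 24 h. No 8 h array reached the mean of another group in either gene, but both were chosen for lying below the other groups. SLC7A1, the arginine carrier, had mean differences of -0.89, -1.29 and -0.76 from DMSO, 4 h and 24 h, and SLC1A5 of -1.43, -1.15 and -0.72. Genes lower at 8 h than in each other group, 0.519% of all genes, included 4 of the 21 genes listed as amino acid transporters, SLC43A3 among them. They also included 4 of 33 endoplasmic reticulum and stress genes and 2 of 19 pentose phosphate and one-carbon enzymes. STC2 and CEBPG are counted among the 4 of 33.

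ATF4 and DDIT4 were looked at after their values were seen. ATF4 itself read 12.13, 12.17 and 12.22 at 8 h and 12.39, 12.40 and 12.69 in DMSO, with means of 13.23 at 4 h and 13.36 at 24 h, with differences of -0.33 from DMSO (adjusted p = 0.035), -1.06 from 4 h and -1.19 from 24 h. Its other probes gave -0.42 and -0.28 against DMSO, the latter not past the test. DDIT4, an inhibitor of mTORC1, read 9.56, 9.20 and 9.32 at 8 h and 9.97, 9.74 and 10.65 in DMSO, with 11.33 at 4 h and 9.93 at 24 h. Other genes linked to ATF4 went apart. MTHFD2 and SLC3A2 were lower at 8 h than in each other group, with smallest differences of 0.69 and 0.43. ASNS and CEBPB were not lowest at 8 h. ASNS, asparagine synthetase, lay 0.59 above DMSO (0.29 and not past the test at its other probe) and read 11.99, 12.22 and 12.48 at 8 h, with 12.17 at 4 h and 12.05 at 24 h. CEBPB, a transcription factor, lay 0.42 above DMSO and differed by -0.89 from 4 h.

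Other genes lowest at 8 h were the zinc importer SLC39A10, with differences of -1.69 from 4 h and -1.03 from 24 h, and ZNF143, a transcriptional activator, which read 6.54, 6.39 and 6.44 at 8 h against 8.83, 8.54 and 8.91 in DMSO, 7.32 at 4 h and 7.29 at 24 h. EPAS1, the hypoxia-inducible factor HIF-2 alpha, read 7.78, 7.91 and 7.66 against 9.26, 9.39 and 9.71, with 8.67 at 4 h and 8.50 at 24 h. Both were wholly below DMSO, but both are named here for lying below the other groups. DIDO1 fell by 0.93 at the probe used and gave 0.28, not past the test, at its other probe.

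Of the genes highest at 8 h, ZNF467, a zinc finger gene, read 7.75, 7.86 and 8.19 at 8 h and 5.30, 5.42 and 4.71 in DMSO, where 2 arrays detected it, with means of 6.37 at 4 h and 6.33 at 24 h. EFNA1 stood 0.90 above 4 h and 1.01 above 24 h. MAP1A, a microtubule-associated protein, read 7.14, 6.79 and 6.86 at 8 h and was at least 3.25-fold above DMSO, with means of 6.08 and 6.0 at the other times. In these 3 genes the means at 4 h and 24 h lay between those of DMSO and 8 h. S100A3, a calcium-binding protein, was at least 1.77-fold above DMSO, and DNAAF19, an assembly factor of ciliary dynein, at least 1.54-fold.

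**Figure D4:**
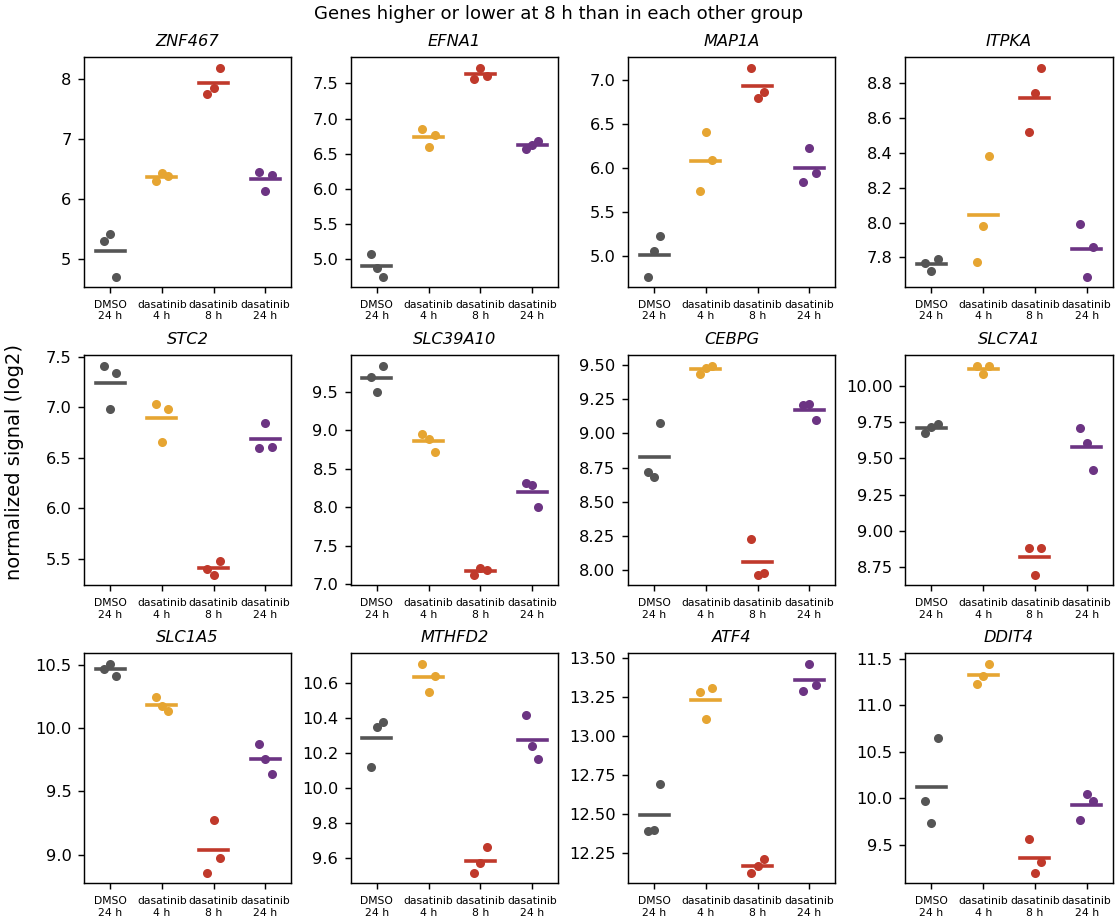
Normalized signal (log2) on each of the 12 arrays for genes whose 8 h level lay outside all other groups, with ATF4 and DDIT4 among them, points for arrays and lines for group means. The 8 h arrays of STC2 lie between 5.34 and 5.48, below all arrays of the other groups, and those of ZNF467 between 7.75 and 8.19, above all of them. An 8 h level outside the other groups by the tests was a condition of choice.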

How the data were processed

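RNA of 12 K562 samples was hybridised to Illumina BeadChips, and 6 arrays (dasatinib at 8 h and DMSO at 24 h, 3 each) are the ones compared. The authors deposited a table of probe intensity values that, from the values, are raw signals with no background correction or scaling across arrays. A detection p-value stands beside every signal, per the file headers. The authors also deposited a value table on a log2 scale with equal distributions in all columns; how it was computed is not given in the sources used, and it served as an alternative. Signal columns named BMS were read as dasatinib, and each column's ranks matched 1 column of the value table in its labelled group.

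Intensities were background-corrected and quantile-normalized with neqc of limma 3.58.1 in R 4.3.3 (control moments from the detection p-values, offset 16, log2). Of 47314 probes, 30108 name 1 gene, 8 several and 17198 none in GEO's platform annotation. A probe passed if detected (p under 0.05) on each array of 1 or more groups (17625 probes), and the brightest of a gene's passing probes stands for the gene, which left 10208 genes. Of 875 called genes with several passing probes, 794 had all of them in the called direction.

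The limma model had 1 mean for each of the 4 groups and used the 12 arrays (8 residual and 4.08 prior degrees of freedom), with moderated two-sided tests of 8 h against DMSO, 4 h and 24 h. Where 1 group did not detect a gene, its values were raised to the lowest value of any detected probe on that array, and the fold is a bound. The arrays' number, 3 a group, limits precision; the median SE was 0.139. The fit was checked on simulated data.

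The members, gene lists and motifs were chosen with earlier results of these data known, so they are described by counts and medians and not tested as sets. Named are the 15 largest rises and falls without overlap, up to 4 called members per list with the largest change, members that moved against their list, the 6 genes a side farthest outside all groups, and some genes fixed by name; not all of them are described, and 1 item is not reported here. Other list members, ATF4 and DDIT4 among them, were added after their values were seen. Some lists share members. Promoters are RefSeq windows, 1 per symbol, from 250 bases before to 50 after the start, and 8253 tested genes had one. Alternatives changed the background correction, offset, filter, probe rule, block, weights, arrays fitted, and left out each array.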

Additional observations from a re-analysis of the deposited data

Results flagged for a closer look

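Against the other lengths of dasatinib exposure, 1151 genes differed in level between 8 h and 4 h and 3647 between 8 h and 24 h by the limma test of the difference itself (11.3% and 35.7% of 10208 genes). In 61 genes the 8 h level was higher than in each of the other 3 groups by all of these tests, and in 53 it was lower. Among probes that name no single gene, which enter none of the gene counts, 449 of 4228 (10.6%) differed between 8 h and DMSO at an adjusted p under 0.05 over those probes, 216 higher and 233 lower.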

How the results depend on the processing

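Over all 15 alternatives for the 8 h to DMSO comparison, the count of genes past the test was 2552 to 3525 against 3265, and none of the 263 named genes that passed changed sign where tested (218 of them among genes detected on all 6 arrays). Of the 3265 genes, 3077 passed in the same direction without background correction, 2894 in the authors' value table and 2440 to 2587 when 1 of the 6 arrays was left out; 9 had the opposite sign when a gene's probes were averaged. Past 2-fold were 131 genes without background correction, 63 in the authors' value table and 295 with an offset of 50. Genes higher than in each other group numbered 100 in the authors' value table, and genes lower than in each other group 33 without the detection filter; the cause was not tested. Leaving out 1 array at a time gave 2552 to 2722 genes against DMSO (1312 to 1399 higher, 1240 to 1333 lower, 516 to 566 at 2-fold). It gave 703 to 1141 against 4 h (364 to 617 higher, 339 to 533 lower) and 2860 to 3670 against 24 h (1454 to 1864 and 1406 to 1806). Genes higher than in each other group were then 38 to 62 and genes lower 29 to 49. Restriction to genes detected on all 6 arrays was chosen after seeing the data; it gave 3012 genes, and the ERK list kept 6 that fell, since undetected members leave the test. With the replicate number as a block 3347 genes passed against DMSO (528 at 2-fold), 1229 against 4 h and 3747 against 24 h. Deviations of same-numbered arrays correlated at 0.058, 0.021 and 0.073, and those of differently numbered arrays at -0.079 to 0.025. For each DMSO array the same-numbered 8 h array gave the highest value. All of these values are small, and the main fit did not pair the samples by number. The fit with only the 6 arrays gave 3045 genes. The fold sizes of dim genes depend on the background correction and the offset.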

Other observations

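The counts of the lists not yet described stand beside 16.6% higher and 15.4% lower over all genes. Of 48 measured histone genes 10 were higher at 8 h than in DMSO (6 without DMSO array 2 or 8 h array 1) and 0 lower, with a median of 0.16, and 24 were lower at 8 h than at 24 h (17.5% of all genes). Near-identical histone genes may share probe signal. Of 24 interferon-stimulated genes 5 rose and 1 fell; the interferon regulatory factor IRF7 rose by 1.19 (SE 0.16) and IRF1 by 1.00, while the exonuclease ISG20 fell by 0.51. Of 41 genes of the actin cytoskeleton and adhesion 8 rose and 8 fell, among them the actin-binding ENC1, which read 7.0, 7.10 and 6.96 at 8 h against 9.55, 9.41 and 9.37 in DMSO.

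Of 31 sterol and fatty acid synthesis genes 3 rose and 6 fell (3 without 8 h array 3). The sterol reductases TM7SF2 and DHCR7 went apart, since TM7SF2 rose by 1.05 (SE 0.14) and DHCR7 fell by 0.76 (SE 0.09). Of 23 iron genes 7 rose (4 without DMSO array 3 or without 8 h array 1 or 2) and 3 fell, with HJV, the hemojuvelin gene, at -2.06. Of 16 polyamine genes 2 rose and 5 fell, of 24 hypoxia-linked genes 6 and 6, of 19 pentose phosphate and one-carbon enzymes 4 and 5, of 34 aminoacyl-tRNA synthetases 4 and 5, of 72 splicing factors 2 and 9, of 39 proteasome subunits 2 and 3, and of 11 reference genes 1 and 1. Leaving out 1 array moved 1 or both counts by over 1.5 times for the polyamine, pentose phosphate, synthetase, splicing and proteasome lists.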
